A study of Mus musculus with 23 samples.

Results

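The Zfp genes are mouse genes whose symbols stand for zinc finger protein, and most of their products bind DNA through C2H2 fingers, small folds in which cysteines and histidines hold a zinc ion. A member is a gene named Zfp followed by a digit, other than Zfp36, whose row mean over all libraries was at least 10 normalized counts in the tables of both tumour models. The members were thus selected on their measured mean level, and no difference between days entered the choice. 221 of 367 such genes were members, out of 24421 genes in each table. 233 Zfp genes reached the mean in the CT26 table and 233 in the B16 table, with 12 reaching it in CT26 alone and 12 in B16 alone, and 11 were listed at 0 in every library. Just inside the threshold, Zfp128 had row means of 11.2 in CT26 and 10.04 in B16 and Zfp846 had 10.09 in both. Just outside it, Zfp64 had 11.6 in CT26 and 9.95 in B16, and Zfp819 had 9.46 in CT26 and 12.8 in B16.

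Several structural classes share the name. KRAB members carry an amino-terminal KRAB box that recruits Trim28 (KAP1) and with it the histone methyltransferase Setdb1, HP1 proteins and the NuRD complex, and many of them silence retroelements. Other members are sequence-specific transcription factors without a KRAB box, subunits of chromatin complexes, or proteins that bind RNA rather than DNA. Zfp36l1 and Zfp36l2 belong to the CCCH family, which binds AU-rich elements in messenger RNAs and promotes their decay.

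Poly-A RNA was sequenced from immature myeloid cells, also called MDSCs, that were isolated from mouse peripheral blood by magnetic separation on days 4, 8 and 11 of tumour growth and on day 0. One model used CT26 colon carcinoma in Balbc mice, with 3 libraries on each of days 0, 4, 8 and 11. The other used B16 melanoma in C57bl mice, with 3 libraries on days 0, 8 and 11 and 2 on day 4. The sources used here give neither the age nor the sex of the mice, and call the libraries of a group biological repeats without saying how many animals each holds. P-values thus measure the spread between these libraries.

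The tables held 10815301 to 13098033 reads in CT26 libraries and 10866557 to 15967218 reads in B16 libraries. Values are normalized counts, reads divided by 1 factor per library, and each model was normalized on its own, so no test crosses the models. The ribosomal RNA precursor Rn45s took 0.427% to 1.05% of counts on days 4, 8 and 11 in B16, against 2.57% to 3.10% on day 0, and 0.343% to 0.770% in CT26. Neutrophil markers had the highest sum of the marker lists, and it moved with the days. In CT26 it was 524989 to 616174 on day 0 and 596756 to 646429 on day 4. It was 738310 to 851438 there on day 8 and 812617 to 1036170 on day 11. In B16 it was 751121 to 770569 on day 0 and 772107 to 774476 on day 4. It was 658790 to 698010 there on day 8 and 951523 to 1006440 on day 11. Other lists moved with the days as well. The 15 platelet markers summed to 34762 to 100534 on day 4, 29272 to 68292 on day 8 and 22163 to 26818 on day 11 in B16, against 3122 to 10997 on day 0, with none at 0. The 14 B cell markers summed to 455 to 889 in CT26 on day 11, against 3669 to 3809 on day 0, and to 2678 to 2959 in B16 on day 8, against 5203 to 5636. The 9 eosinophil markers summed to 8170 to 9099 in CT26 on day 11, against 16499 to 17630 on day 0, and most of that sum was Cd24a, which other blood cells also express. Without Cd24a it was 863 to 1029 against 5262 to 5730 (8 markers), and in B16 1872 to 2160 on day 8, against 508 to 587. The 8 erythroid markers, of which the haemoglobin genes Hba-a1, Hba-a2 and Hbb-bt were at 0 in every library, summed to 666 to 729 in B16 on day 4, against 50.8 to 84.1. The 8 NK cell markers summed to 4.599 to 10.4 in CT26 on day 11, against 40.8 to 56.6. The part of these cells in the results below was not tested, and in bulk RNA fewer cells of a type and less RNA per cell cannot be told apart.

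All 221 members were found in the GENCODE M21 annotation of GRCm38, 2 of them under a newer symbol. Translated coding sequences held a median of 10 C2H2 fingers, counted as matches of a spacing pattern, and at most 37, in Zfp142. A KRAB A box was matched in 116 members and not in 105. KRAB members had a median of 12 fingers and the others 6. 7 members had no C2H2 match, and the C2H2 label does not hold for Zfp36l1 and Zfp36l2, the only members with CCCH matches, 2 in each. 105 members, 82 of them KRAB members, lay in 20 runs of at least 3, in which each member lay within 500 kb of the next. The longest runs were 17 KRAB members on chromosome 13 (67038596 to 67755228) and 12 on chromosome 17 (21008903 to 22377281). 48 members were on chromosome 7, the most of any chromosome. Of all members, 29 shared over 10% of their exonic 50-mers with another gene, and Zfp935 shared 100%, so its counts are uncertain.

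Upstream sequences are shown for 4 members that the results turn on, chosen after their values were seen, since they changed with the days in 1 or both models. Each is the 150 bases before the RefSeq start in GRCm38.p6, on the gene's own strand. Capitals mark the motifs searched on both strands. The AP-1 pattern is searched as TGANTCA, where N is any base, so a match need not be the consensus AP-1 site. The E-box is CACGTG. The cyclic AMP response element reads TGACGTCA. The letters of the CCAAT box are in its name and on the other strand become ATTGG. The GC box is searched as GGGCGG, which appears on the other strand as CCGCCC. Zfp36l1 (chr12:80113014-80113163, minus strand) held 1 match of the AP-1 pattern, TGATTCA, 129 bases before the start. It held a CCAAT box 24 bases before the start, with 6 CG dinucleotides. Zfp281 (chr1:136624751-136624900, plus strand) held 1 CCAAT box and 3 GC boxes. Zfp385a (chr15:103340087-103340236, minus strand) and Zfp318 (chr17:46383616-46383765, plus strand) held 2 GC boxes each, and Zfp318 had 24 CG dinucleotides. The RefSeq table lists 2 promoters for Zfp385a, and the one shown is its first entry.
Zfp36l1: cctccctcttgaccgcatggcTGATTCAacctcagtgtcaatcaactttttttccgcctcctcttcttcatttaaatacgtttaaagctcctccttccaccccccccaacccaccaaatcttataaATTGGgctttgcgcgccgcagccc
Zfp281: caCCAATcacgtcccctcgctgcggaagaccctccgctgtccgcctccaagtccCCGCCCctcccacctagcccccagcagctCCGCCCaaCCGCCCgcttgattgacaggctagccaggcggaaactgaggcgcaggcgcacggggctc
Zfp385a: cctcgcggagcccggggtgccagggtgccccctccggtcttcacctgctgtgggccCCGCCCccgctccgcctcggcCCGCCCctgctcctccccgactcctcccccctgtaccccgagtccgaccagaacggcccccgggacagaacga
Zfp318: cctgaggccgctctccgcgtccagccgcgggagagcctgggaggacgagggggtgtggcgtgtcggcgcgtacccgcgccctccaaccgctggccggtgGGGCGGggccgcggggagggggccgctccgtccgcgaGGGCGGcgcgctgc

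Over the 250 bases before the start, RefSeq promoters were at hand for 189 members among 27025 genes, with 1 promoter taken per gene, the first entry in the table. The CCAAT box was in 47.6% of member promoters and 34.5% of all, and the GC box in 45.5% and 32.9%. The cyclic AMP response element was in 5.29% of member promoters and 1.62% of all. The AP-1 pattern was in 4.23% and 6.87%, and the E-box in 6.88% and 6.05%. Member promoters had a median of 12 CG dinucleotides and all promoters 6. The 27025 genes were not chosen by level, as the members were, so family and level cannot be told apart in these shares. These are matches of letters, given as a description.

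The median row mean of members was 97.6 normalized counts in CT26 and 104.0 in B16, against 136 and 148 for all genes tested, and no member had a 0 in any library. Per kilobase of exon, Zfp36l2 led in both models, with 6271 ± 882 normalized counts per kb over 12 CT26 libraries and 4995 ± 1209 over 11 B16 libraries (SD). Zfp740, Zfp36l1, Zfp217 and Zfp710 followed in CT26, with 720 ± 54.7, 689 ± 438, 580 ± 104 and 525 ± 60.1 per kb, and each neighbour in this order lay within the larger SD of the pair. In B16 the order was Zfp36l1 with 1139 ± 372, Zfp740 with 770 ± 86.9, Zfp869 with 543 ± 137, Zfp710 with 514 ± 47.4 and Zfp217 with 506 ± 47.4 per kb, and the same held there except between Zfp740 and Zfp869. Zfp740 itself was lower in B16, with 3499 ± 51.5 normalized counts on day 8, against 4535 ± 259.5 on day 0 (-0.37 ± 0.06, limma adjusted p = 0.000119). Zfp217 is the counterpart of ZNF217, an oncogene amplified in human breast cancer. All members summed to 0.662% to 0.817% of CT26 libraries and 0.474% to 0.760% of B16 libraries, and to 0.501% to 0.571% and 0.391% to 0.568% without Zfp36l2.

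Tests used limma on log2(normalized count + 1), adjusted by Benjamini-Hochberg over all 11373 genes tested in CT26 and 11930 in B16, and a member is called where the adjusted p is under 0.05. In CT26, 13 members were higher and 2 lower on day 4 than on day 0, when 6.4% and 4.46% of all genes tested were called higher and lower. On day 8, 14 members were higher and 22 lower (6.33% and 9.95% of members, against 15.1% and 11.8% of all genes). On day 11, 34 were higher and 53 lower (15.4% and 24.0% of members, against 26.3% and 24% of all genes). Between day 11 and day 4, which uses no day 0 library, 16 were higher and 44 lower, when 19.8% and 18.1% of all genes were called. In CT26 the share of members called lower thus lay near or under that of all genes, and the share called higher under it on days 8 and 11. The median log2 fold change of members was 0.07 on day 4, -0.05 on day 8 and -0.08 on day 11, against 0.02, -0.01 and -0.01 for all genes tested.

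In B16, 27 members were higher and 28 lower on day 4 than on day 0, when 20.3% and 15.5% of all genes were called higher and lower. On day 8, 77 were higher and 28 lower (34.8% and 12.7% of members, against 28.6% and 27.3% of all genes). On day 11, 56 were higher and 31 lower, when 23.9% and 21.8% of all genes were called. Between day 11 and day 4, 14 were higher and 0 lower, when 5.72% and 4.42% of all genes were called (limma). There, 1 member was lower by edgeR and 3 by DESeq2, and 12 were lower at an unadjusted p under 0.05. The median log2 fold change of members was 0.04 on day 4, 0.19 on day 8 and 0.09 on day 11, against 0.01, -0.02 and -0.02 for all genes tested. The 3 comparisons with day 0 in a model share its day 0 libraries.

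**Figure D1:**
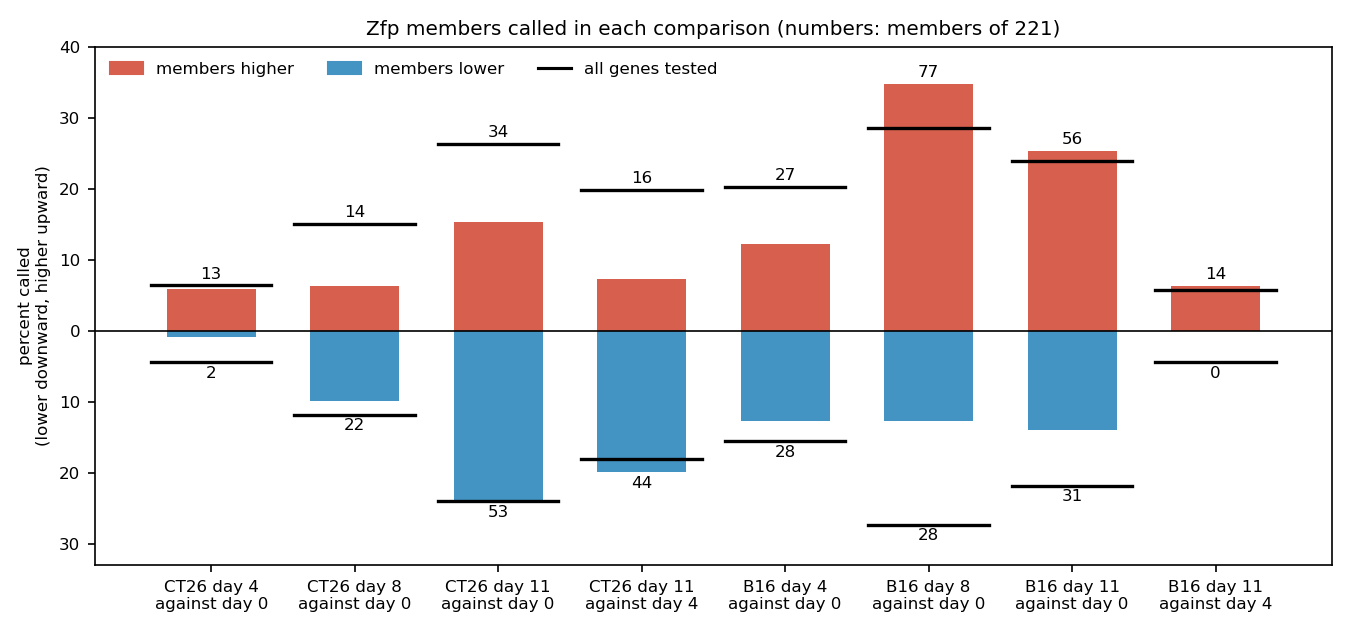
Percent of the 221 members called higher (red, upward) and lower (blue, downward) in each comparison at a limma adjusted p under 0.05, with black lines for the percent of all genes tested and the number of members beside each bar. B16 day 8 has the most members called higher, 77, and CT26 day 11 the most called lower, 53.

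These splits depend on the scaling between libraries. With every library of a model scaled to the same total, the median of all genes moved by -0.12, -0.17 and -0.28 on days 4, 8 and 11 in CT26 and by -0.05, 0.12 and -0.13 in B16 (log2), and by -0.16 and -0.09 between day 11 and day 4. Under that scaling CT26 had 5 members higher and 3 lower on day 4, 7 and 59 on day 8, 16 and 103 on day 11, and 12 and 86 between day 11 and day 4. B16 had 34 higher and 45 lower on day 11, and 11 and 4 between day 11 and day 4. edgeR gave 25 higher and 64 lower in CT26 on day 11, and DESeq2 gave 13 and 3 in B16 between day 11 and day 4. The median of members lay 0.21 above that of all genes on day 8 in B16, under both scalings. Between day 11 and day 4 in CT26 it lay 0.17 below that of all genes, also under both. Scaling to the same total moves all genes of a library by nearly the same log2 amount. The distance between these medians could thus hardly change, and its likeness under both scalings is no check on it.

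The number past a 2-fold change was 2, 10 and 25 of 221 members on days 4, 8 and 11 in CT26, or 0.905%, 4.52% and 11.3%, against 5.03%, 8.94% and 18.2% of all genes tested. In B16 it was 10, 28 and 10, or 4.52%, 12.7% and 4.52%, against 13.4%, 21.7% and 15.1%. In CT26, 96 members were called on at least 1 day and 125 on none, so 43.4% were called, against 54.5% of all genes tested. In B16 it was 138 and 83, or 62.4% called, against 69.7%. 51 were called on no day in either model, 23.1% of members, against 16.6% of the genes tested in both. In B16, 21 members were higher on all 3 days and 13 lower, 9.50% and 5.88%, against 12.97% and 9.72% of all genes. In CT26 it was 1 and 2, or 0.452% and 0.905%, against 4.15% and 2.91%.

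The 2 CCCH members, which destabilise messenger RNAs, had different courses. Zfp36l1 (chromosome 12, 80107754 to 80113013, minus strand) had 814, 890.4 and 991 normalized counts in the CT26 libraries of day 0, 1042, 917 and 937 on day 4, 2705, 2463 and 2352 on day 8 and 3421, 4569 and 3602 on day 11. Every library of days 8 and 11 lay above every library of days 0 and 4. Against day 0 its log2 fold change was 1.48 ± 0.11 on day 8 (limma adjusted p = 2.06e-08) and 2.10 ± 0.11 on day 11 (limma adjusted p = 8.68e-11), a 4.28-fold rise. In B16 it had 2423, 2294 and 2130.3 on day 0, 3715 and 3326 on day 4, 3011, 2861 and 2759 on day 8 and 5253, 4901 and 4797 on day 11. Each later day lay wholly above day 0, with day 8 the lowest of them, and the log2 fold change on day 11 was 1.13 ± 0.07 (limma adjusted p = 3.38e-07). 55.9% of its exonic length overlaps the opposite-strand gene Gm26669, and the sources used here do not say whether the counting used strand.

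Zfp36l2 (chromosome 17, 84183931 to 84187947, minus strand), its paralogue, had 13034, 13819 and 11506 in the B16 libraries of day 0, 15171 and 13739 on day 4, 23817, 21648 and 20930.1 on day 8 and 20492, 18516 and 21289 on day 11. Days 8 and 11 lay above day 0 without overlap, with log2 fold changes of 0.79 ± 0.08 and 0.65 ± 0.08 (limma adjusted p = 4.55e-06 and 4.61e-05). In CT26 it had 21644, 24629 and 27275 on day 0, 27071, 23854 and 22892 on day 4, 20578, 19448 and 19724 on day 8 and 18199, 22077 and 18259 on day 11. Day 8 lay wholly below day 0 and did not pass the test (-0.29 ± 0.11, limma adjusted p = 0.0657), and day 11 overlapped day 0. Its log2 fold change on day 11 was -0.33 ± 0.11 (limma adjusted p = 0.0234). That call was lost without day 0 replicate 2 (-0.32), day 0 replicate 3 (-0.25) or day 11 replicate 3 (-0.28) and in a fit of those 2 days alone (-0.33).

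**Figure D2:**
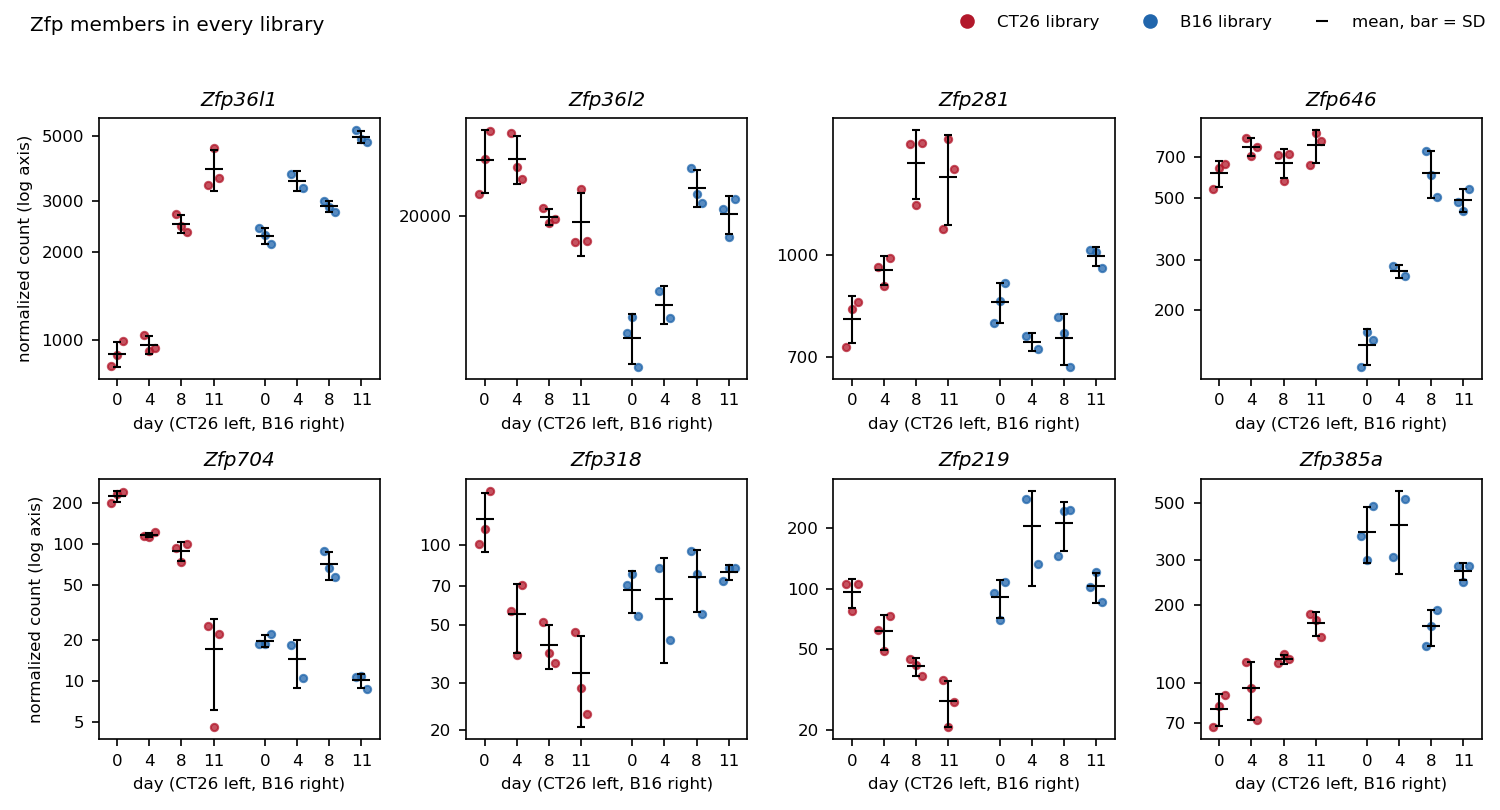
Normalized counts on log axes of 8 members in every library, by day, CT26 in red on the left and B16 in blue on the right of each panel, with the mean and SD of each group in black. Zfp36l1 is highest on day 11 in both models, Zfp704 on day 8 is low in CT26 (73.7 to 99.0) and high in B16 (57.5 to 88.2) beside its own day 0, and Zfp646 is raised in B16.

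Among the 8 members that act on RNA, splicing or translation, 2 were higher and 1 lower on day 4, 1 and 2 on day 8 and 3 and 3 on day 11 in CT26, and 1 and 3, 5 and 3, and 3 and 2 in B16. Of all genes tested, 26.3% were called higher and 24% lower on day 11 in CT26, and 28.6% and 27.3% on day 8 in B16. The shares of all genes in every comparison are those given with the members as a whole, and the counts of this and the other role lists, each of a few genes, are descriptions beside them. Zfp622, which helps the large ribosomal subunit mature in the cytoplasm, was the only member lower in all 6 comparisons with day 0. It had 293 ± 25.7, 299 ± 8.28 and 267 ± 24.5 normalized counts on days 4, 8 and 11 in CT26, against 445 ± 33.8 on day 0 (SD, n = 3), and the later libraries lay between 245 and 315 with those of day 0 between 409 and 476. B16 means were 365 ± 27.7 (n = 2), 424 ± 28.4 and 359.7 ± 13.4, against 511 ± 33.9 on day 0. Its log2 fold change was -0.74 ± 0.10 on day 11 in CT26 (limma adjusted p = 1.14e-05) and -0.50 ± 0.09 in B16 (limma adjusted p = 0.00055). The weakest of the 6 calls, on day 8 in B16 (-0.27 ± 0.09), was lost without day 0 replicate 2 (-0.22) or day 8 replicate 2 (-0.21) and with libraries scaled to the same total (-0.14).

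Zfp598, the ubiquitin ligase that marks collided ribosomes, moved in opposite directions in the models. B16 libraries had 557, 523 and 464 normalized counts on day 8 and 313, 271 and 345 on day 11, against 193, 253 and 221 on day 0, and both days lay wholly above day 0. In CT26 it had 362, 356 and 317 on day 8 and 275, 274 and 325 on day 11, against 408, 437 and 467 on day 0, wholly below it. Its log2 fold change on day 11 was 0.48 ± 0.12 in B16 and -0.59 ± 0.10 in CT26 (limma adjusted p = 0.0074 and 0.000126). The CT26 day 8 call (-0.34 ± 0.10) was lost without day 0 replicate 2 (-0.34), day 0 replicate 3 (-0.29) or day 8 replicate 3 (-0.28). Zfp346, which binds double-stranded RNA, fell in B16 by 0.82, 0.75 and 0.91 on days 4, 8 and 11 on the log2 scale (limma adjusted p = 0.00245, 0.0011 and 0.000453), and its CT26 day 11 call (-0.32) was lost in 14 alternative analyses. Zfp638, which takes part in silencing unintegrated retroviral DNA, rose in B16 to 1242 ± 114 on day 8, against 714 ± 56.3 on day 0 (limma adjusted p = 1.3e-05), and in CT26 to 1450.1 ± 155 on day 11, against 1051 ± 62.9 (limma adjusted p = 0.000271).

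The other RNA members had smaller changes. Zfp106, an RNA-binding protein that motor neurons need in mice, had 5375 ± 754 on day 11 in CT26, against 3243 ± 458 on day 0, and 4089.9 ± 637 on day 8 in B16, against 2857 ± 47.3. Those log2 fold changes were 0.73 ± 0.12 and 0.51 ± 0.09 (limma adjusted p = 7.08e-05 and 0.000609). Zfp207, the spindle and kinetochore protein BuGZ, rose by 0.50 ± 0.08 on day 11 in CT26 and by 0.36 ± 0.06 on day 8 in B16 (limma adjusted p = 5.94e-05 and 0.000444). Zfp326, part of a complex that links transcription and splicing, changed by 0.60 ± 0.22 on day 8 in B16 (limma adjusted p = 0.0348), a call lost in 5 alternative analyses. Zfp830 was lower on days 4 and 8 in B16 (-0.39 and -0.32), and these calls were lost in 12 and 9 alternative analyses.

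Of the 11 transcription factors without a KRAB box, 2 were higher and 1 lower on day 8 and 4 and 1 on day 11 in CT26 (limma), with 0 called on day 4, where 1 was higher and 1 lower at an unadjusted p under 0.05 and edgeR and DESeq2 called 0. In B16 3, 6 and 5 were higher on days 4, 8 and 11 and 0 lower by limma, edgeR or DESeq2, with 2, 1 and 0 lower at an unadjusted p under 0.05. On those days 20.3%, 28.6% and 23.9% of all genes were called higher in B16. Zfp281 (chromosome 1, 136624901 to 136630053, plus strand), a GC-box binding factor of pluripotent cells, had 726, 829 and 849 normalized counts on day 0, 957, 897 and 989 on day 4, 1467, 1189 and 1476 on day 8 and 1095, 1493 and 1348 on day 11 in CT26. Days 8 and 11 lay wholly above days 0 and 4, with log2 fold changes of 0.78 ± 0.11 and 0.70 ± 0.11 against day 0 (limma adjusted p = 5.27e-05 and 5.89e-05). Its B16 values were 754 and 722 on day 4, 806, 761 and 677 on day 8 and 1015, 1010.4 and 957 on day 11, against 789, 852 and 906 on day 0. Its B16 day 11 change of 0.23 ± 0.08 was called (limma adjusted p = 0.0318) but lost without day 0 replicate 1 or 2 (0.18 and 0.23) or day 11 replicate 1 or 2 (0.21 and 0.22), with a replicate block (0.23) and with libraries scaled to the same total (0.09).

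Zfp335, which T cell development needs in mice, had 435, 504 and 379 on day 0, 617 and 604 on day 4, 1389, 1268 and 1079.8 on day 8 and 872, 864 and 904 on day 11 in B16. All later libraries lay above those of day 0, and day 8 was the highest, with a log2 fold change of 1.505 ± 0.11 (limma adjusted p = 3.78e-07). In CT26 its means were 1444 ± 141, 1139 ± 80.4 and 1285 ± 204 on days 4, 8 and 11, against 1241 ± 208 on day 0, and it passed no test there. 28.3% of its exonic length overlaps genes on the other strand, among them Zfp335os. Zfp292, a large many-fingered factor, rose in both models, to 1382 ± 149 on day 11 in CT26, against 781 ± 120.4 on day 0, and to 811 ± 155 on day 8 in B16, against 418 ± 30.2 (limma adjusted p = 3.68e-05 and 2.62e-05). Zfp131 had 351 ± 30.7 on day 8 in B16, against 248 ± 9.57 on day 0 (0.50 ± 0.09, limma adjusted p = 0.000649). Zfp148, which binds GC-rich promoter elements, had 728 ± 94.5, against 463 ± 26.4 (0.65 ± 0.10, limma adjusted p = 0.000113). Zfp143, a promoter-binding factor linked to chromatin loops, changed by 0.29 ± 0.09 on that day (limma adjusted p = 0.012), a call lost without day 8 replicate 1 (0.21). Zfp217 rose by 0.54 ± 0.11 on day 11 in CT26 (limma adjusted p = 0.000732) and by 0.27 ± 0.08 in B16, where the call was lost with libraries scaled to the same total (0.13). Zfp384, Zfp410 and Zfp191 (Zfp24) were called in no comparison. Zfp410 is known in human cells for driving Chd4.

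**Figure D3:**
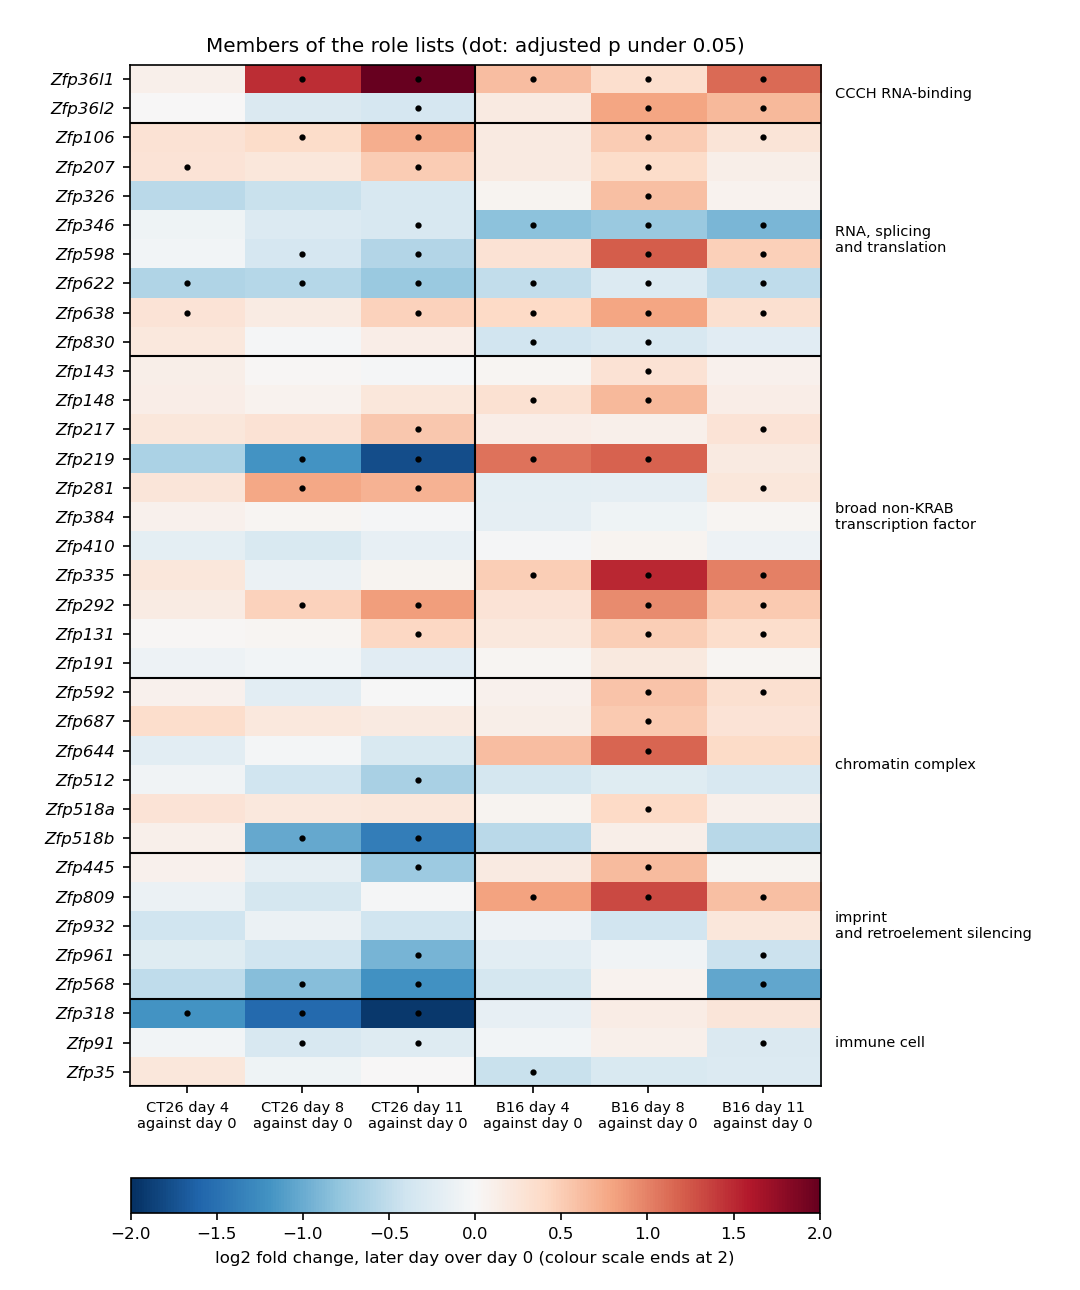
Log2 fold change over day 0 (colour) of the members of the role lists in the 3 CT26 and 3 B16 comparisons, with a dot where the limma adjusted p is under 0.05. Zfp622 is blue with a dot in all 6 columns, and Zfp219, Zfp598 and Zfp445 change colour between the models.

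Of the chromatin complex list, 6 members and 1 further gene tested in CT26 alone, 4 were higher in B16 on day 8, and 0 lower by limma, edgeR, DESeq2 or at an unadjusted p under 0.05. In CT26 2 were lower on day 11 and 0 higher by limma, edgeR or DESeq2, with 1 higher at an unadjusted p under 0.05. Of all genes, 28.6% were called higher on day 8 in B16 and 24% lower on day 11 in CT26. Zfp592 and Zfp687, partners of Zmynd8 in a chromatin complex, had B16 log2 fold changes of 0.57 ± 0.10 and 0.52 ± 0.11 on day 8 (limma adjusted p = 0.000522 and 0.00195). Zfp644, which binds the G9a and GLP methyltransferases, had 109.8 ± 5.4 on day 8 in B16, against 50.7 ± 17.1 on day 0 (1.16 ± 0.25, limma adjusted p = 0.00175). Zfp518a rose by 0.40 ± 0.09 on day 8 in B16 (limma adjusted p = 0.00146), and Zfp512 had 67.7 ± 4.97 on day 11 in CT26, against 107 ± 11.4 (-0.64 ± 0.16, limma adjusted p = 0.00367). Zfp518b had 16, 17.4 and 23.5 on day 8 and 16.2, 17.3 and 10.3 on day 11 in CT26, against 37.1, 44.6 and 35.8 on day 0, and fell by 1.02 and 1.39 on the log2 scale (limma adjusted p = 0.00693 and 0.00027).

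The list of genes that guard imprints or silence retroelements had 5 members, plus Zfp819 just under the threshold. In CT26 1 of the 6 was lower on day 8 and 3 on day 11, and 0 were higher on any day by limma, edgeR, DESeq2 or at an unadjusted p under 0.05. In B16 1, 2 and 2 were higher on days 4, 8 and 11, and 2 were lower on day 11, with 0 lower by any of these on days 4 and 8. Of all genes, 24% were called lower on day 11 in CT26 and 28.6% higher on day 8 in B16. Zfp809, which binds the proline primer site of murine leukaemia viruses, had 113 and 113 on day 4, 167, 147 and 169 on day 8 and 78.8, 91.9 and 129 on day 11 in B16, against 75.5, 53.3 and 65.1 on day 0. Every later library lay above day 0, and the day 8 change was 1.31 ± 0.19 (limma adjusted p = 7.55e-05). Its day 4 call was lost without day 4 replicate 1 (0.82), and its day 11 call without day 0 replicate 2 (0.47) or day 11 replicate 3 (0.41) and with libraries scaled to the same total (0.47). In CT26 its means were 113 ± 16 on day 8 and 143 ± 18.8 on day 11, against 144 ± 12.9 on day 0, with no call. Zfp445, which with Zfp57 keeps parental imprints, had 287, 271 and 319.6 on day 11 in CT26, against 458, 505 and 490.5 on day 0, and fell by 0.73 on the log2 scale (limma adjusted p = 1.93e-05). In B16 it had 592, 616 and 513 on day 8, against 394, 397 and 317 on day 0, a change of 0.64 ± 0.12 (limma adjusted p = 0.00056). Zfp568, a repressor of a fetal Igf2 transcript, had 19.5 ± 6.25 on day 11 in CT26, against 44.9 ± 2.45 (limma adjusted p = 0.00171). Zfp961 was lower on day 11 in B16, with 112 ± 10.5, against 152 ± 8.27 on day 0 (-0.43 ± 0.12, limma adjusted p = 0.0109). Its CT26 day 11 change of -0.93 ± 0.29 was called but lost without day 0 replicate 1 or 2 (-0.83 and -0.81) or day 11 replicate 2 (-0.69). Zfp932, which shares 37.0% of its 50-mers with other genes, was called in no comparison with day 0.

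Of the 116 KRAB members, 5, 5 and 14 were higher on days 4, 8 and 11 in CT26 and 5 and 22 lower on days 8 and 11, against 8, 9 and 20 higher and 2, 17 and 31 lower of the 105 without a KRAB match. On day 4, 0 KRAB members were lower by limma, edgeR or DESeq2, and 1 was at an unadjusted p under 0.05. In B16 13, 35 and 23 KRAB members were higher and 14, 16 and 16 lower, against 14, 42 and 33 higher and 14, 12 and 15 lower. Of all genes tested in CT26, 6.4%, 15.1% and 26.3% were called higher on days 4, 8 and 11 and 4.46%, 11.8% and 24% lower. Of those tested in B16, 20.3%, 28.6% and 23.9% were called higher and 15.5%, 27.3% and 21.8% lower. The median log2 fold change on day 8 in B16 was 0.19 for KRAB members and 0.20 for the others, and on day 11 in CT26 it was -0.07 and -0.10. The level, on which the members were selected, also went with the calls, in members as in other genes. Of the 74 members with the lowest levels, 3 were higher on day 11 in CT26 and 25 lower (4.05% and 33.8%), with a median of -0.52, and of the 2810 genes tested in both models within the same range of levels 12.5% were higher and 25.9% lower, with a median of -0.25. Of the 73 members with the highest levels, 20 were higher and 10 lower (27.4% and 13.7%), and of the 5120 genes in their range 39.6% and 19.98%. On day 8 in B16, 12 of the lowest were higher and 5 lower (16.2% and 6.76%, against 17.9% and 19.4% of genes of like level), and 41 and 10 of the highest (56.2% and 13.7%, against 39.4% and 33.7%). The part of counting error at low levels in these counts was not tested.

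Zfp715 was the only member called higher in all 6 comparisons with day 0, and Zfp719, in the same run on chromosome 7, was higher in 5, as were Zfp36l1 and Zfp638. Zfp715 (chromosome 7, 43296197 to 43313294, minus strand, 19 fingers and a KRAB box) had 759, 725 and 788 on day 4, 758, 763 and 845 on day 8 and 884, 1076 and 1074 on day 11 in CT26, against 586, 605 and 553 on day 0. In B16 it had 648 and 685 on day 4, 815, 699.9 and 688 on day 8 and 571, 497 and 538 on day 11, against 427, 429.7 and 447 on day 0, so day 0 was lowest in both models without overlap. The log2 fold change was 0.79 ± 0.09 on day 11 in CT26 and 0.75 ± 0.08 on day 8 in B16 (limma adjusted p = 1.24e-06 and 1.1e-05). Its CT26 day 4 call was lost without day 0 replicate 3 (0.34) or day 4 replicate 3 (0.35), and its B16 day 11 call without day 11 replicate 1 (0.25) and with libraries scaled to the same total (0.16). Zfp719 had 194 ± 10.01 on day 11 in CT26, against 108 ± 5.48, and 194 ± 16.5 in B16, against 104 ± 14.5 (limma adjusted p = 2.28e-05 and 0.000218). Altogether 16 members were higher in at least 4 of the 6 comparisons and 4 lower. The lower ones were Zfp622, Zfp346, Zfp358 and Zfp553. How many of all genes tested were called this often, or in all 6, was not counted. These repeated calls are thus a description and not a trait of the members.

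Further members were called in at least 4 of these comparisons. Zfp319 had 339 ± 7.08, 409 ± 62.3 and 373 ± 21 on days 4, 8 and 11 in B16, against 199.5 ± 17.9 on day 0, with a day 8 log2 fold change of 1.02 ± 0.11 (limma adjusted p = 1.14e-05). Zfp608 had 2599 ± 454 on day 11 in CT26, against 1596 ± 174, and 1284 ± 118 in B16, against 749 ± 25.8 (limma adjusted p = 6.53e-05 and 6.18e-05). Zfp426 rose in B16 by 0.78 ± 0.16 on day 8 and 0.69 ± 0.16 on day 11 (limma adjusted p = 0.00102 and 0.00358). Both were kept in the alternatives, while its CT26 day 11 call was lost in 8. Zfp729a, which shares 14.8% of its 50-mers, had 322 ± 41.4 on day 8 in B16, against 158 ± 3.21 (limma adjusted p = 1.16e-05). Zfp619 rose by 0.69 ± 0.20 on day 8 in B16 (limma adjusted p = 0.0109), lost without day 0 replicate 2 (0.53). Zfp821 was higher on days 8 and 11 in CT26 (0.61 ± 0.10 and 0.48 ± 0.10), lower on day 8 in B16 (-0.52 ± 0.09) and higher there on day 11 (0.50 ± 0.09). The CT26 day 11 call was lost with libraries scaled to the same total (0.19). Zfp358 had 13.8 ± 2.98 on day 11 in CT26, against 42.5 ± 9.25 (-1.55 ± 0.27, limma adjusted p = 0.000155), and Zfp553 had 36.4 ± 1.29, against 78.3 ± 13.4 (-1.07 ± 0.24, limma adjusted p = 0.00157).

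Neighbouring genes did not always move alike. Of the 17 members in the chromosome 13 run, 3 were higher on day 11 in CT26 and 0 lower by limma, but 1 was higher and 2 lower by edgeR and 2 and 0 by DESeq2, with 3 higher and 2 lower at an unadjusted p under 0.05. In B16 6 were higher and 1 lower on day 8 and 5 and 1 on day 11. Of the 12 in the chromosome 17 run, 1 was higher and 1 lower on day 11 in CT26. Of all genes, 26.3% and 24% were called there, and 28.6% were higher and 27.3% lower on day 8 in B16. In B16 3, 7 and 7 of them were higher on days 4, 8 and 11, with median log2 fold changes of 0.36, 0.66 and 0.68, and 0 were lower by limma, edgeR, DESeq2 or at an unadjusted p under 0.05. It holds Zfp758, higher in B16 by 0.81 ± 0.15 on day 8 (limma adjusted p = 0.000456), and Zfp948, higher by 1.03 ± 0.20 on day 11 (limma adjusted p = 0.00114). The 8 members of the chromosome 7 run from 127233061 to 127885996 were divided, with 2 higher and 2 lower on day 8 in B16.

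That run holds Zfp646 (127876221 to 127885996, plus strand, 30 fingers), one of the members with the largest rise in B16. It had 125, 167 and 156 on day 0, 285 and 265 on day 4, 739, 605 and 505 on day 8 and 485, 449 and 541 on day 11. No later library overlapped day 0, and the log2 fold changes were 0.89 ± 0.16, 2.03 ± 0.14 and 1.72 ± 0.14 (limma adjusted p = 0.00108, 3.45e-07 and 3.16e-06). In CT26 it had 771 ± 102 on day 11, against 614 ± 65 on day 0, a call (0.33 ± 0.11) that was lost without day 0 replicate 1 (0.24) or day 11 replicate 2 or 3 (0.25 and 0.29), by edgeR (0.24), in a fit of those 2 days alone (0.33) and with libraries scaled to the same total (0.04). Zfp526 had 100.1, 91.6 and 66 on day 8 in B16, against 18.6, 27.7 and 12.1 on day 0 (2.14 ± 0.33, limma adjusted p = 0.000132), and 20.3, 26.7 and 28.5 on day 11. Zfp345 had 18.7, 11.3 and 18.6 on day 8, against 50.8, 53.3 and 62.9 on day 0 (-1.75 ± 0.29, limma adjusted p = 0.000278), and shares 29.8% of its 50-mers with other genes.

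Further members had large falls. Zfp362 had 40.6, 18.4 and 10.3 on day 11 in CT26, against 64.6, 73.7 and 89.5 on day 0 (-1.87 ± 0.33, limma adjusted p = 0.000182). In B16 Zfp113 had 91.9 ± 6.53 on day 8, against 229 ± 41.3 (-1.30 ± 0.16, limma adjusted p = 2.96e-05), and Zfp954 had 39.6 ± 1.17, against 85.3 ± 10.1 (-1.08 ± 0.19, limma adjusted p = 0.000324). On day 11 the B16 log2 fold changes were -1.04 ± 0.18 for Zfp322a, -1.06 ± 0.24 for Zfp60, -1.13 ± 0.23 for Zfp329 and -1.06 ± 0.26 for Zfp799, all called. Zfp653 was lower on day 11 in CT26 (-1.12 ± 0.32), a call lost without day 11 replicate 2 (-0.82). Among members that were higher, Zfp275 had 73.5 ± 12 on day 8 in CT26, against 36.3 ± 6.08 (1.00 ± 0.19, limma adjusted p = 0.000695). Zfp866 was higher on day 4 in CT26 (0.52 ± 0.12) and lower on day 11 in B16 (-0.57 ± 0.16). Several day 4 calls were less steady. Zfp385c in B16 (-1.65 ± 0.38) lost its call without day 4 replicate 1 (-1.32), while Zfp280b in CT26 (1.17 ± 0.30), Zfp146 in B16 (1.06 ± 0.37) and Zfp235 in B16 (-1.03 ± 0.38) lost theirs in 5, 11 and 13 alternative analyses.

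In 3 members with large B16 changes, chosen after their values were seen, the 3 libraries with the highest platelet sums were also the highest. The platelet sum was 3919, 3122 and 10997 on day 0, 100534 and 34762 on day 4, 29272, 60833 and 68292 on day 8 and 22163, 26818 and 24386 on day 11. Zfp664 (chromosome 5, 124862691 to 124902693, plus strand) had 71.8, 73.8 and 89.4 on day 0, 573 and 232 on day 4, 277, 477 and 477 on day 8 and 202, 222 and 229 on day 11. Its log2 fold changes were 2.21 ± 0.31, 2.34 ± 0.28 and 1.47 ± 0.28 (limma adjusted p = 0.000224, 2.04e-05 and 0.00119). Zfp937 had 111, 69.7 and 143 on day 0, 459.7 and 192 on day 4, 159.5, 339 and 339.9 on day 8 and 146, 183 and 158 on day 11. Zfp219 had 95.3, 69.7 and 108 on day 0, 276 and 133 on day 4, 144, 243 and 246 on day 8 and 102, 120.5 and 85.5 on day 11. In all 3, day 4 replicate 1 was the highest library and day 8 replicates 2 and 3 came next. The order did not hold throughout. The platelet sum was higher in day 4 replicate 3 (34762) than in day 8 replicate 1 (29272), while Zfp664 and Zfp219 were lower there (232 against 277 and 133 against 144). On day 11 every platelet sum lay above day 0, while Zfp219 overlapped day 0. The day 4 calls of Zfp937 (1.51 ± 0.40) and Zfp219 (1.09 ± 0.31) were lost without day 4 replicate 1 (0.88 and 0.56), and that of Zfp219 also without day 0 replicate 2 (0.91) and in a fit of those 2 days alone (1.09). The part of platelet RNA in these values was not tested.

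**Figure D4:**
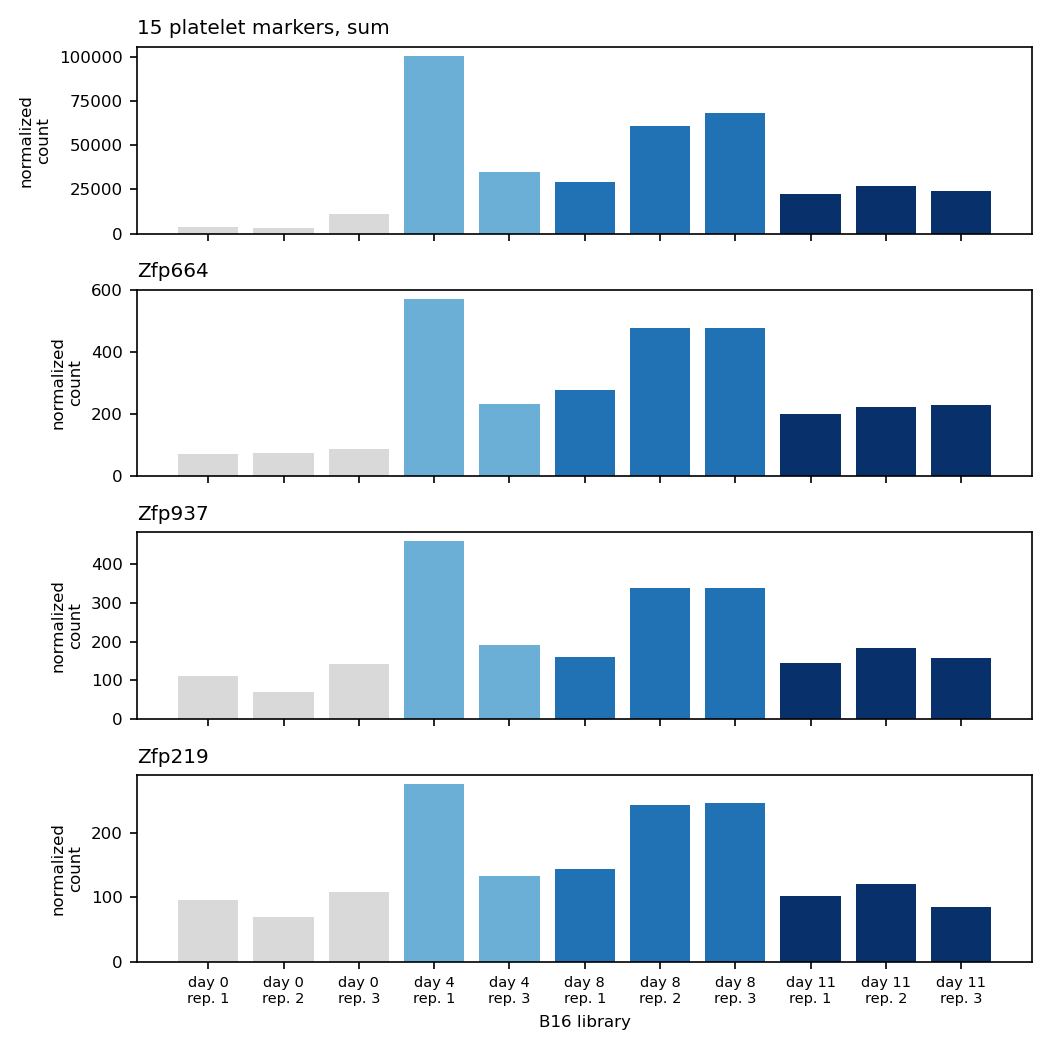
Normalized counts in the 11 B16 libraries, by day and replicate, of the summed 15 platelet markers and of Zfp664, Zfp937 and Zfp219, with linear axes from 0 and darker bars for later days. The 3 members are highest in day 4 replicate 1, where the platelet sum is 100534, and next in day 8 replicates 2 and 3.

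Zfp219 fell in CT26, where the platelet sum was 1911 to 1990 on day 0, 1442 to 4936 on day 4, 1073 to 1459 on day 8 and 778 to 1661 on day 11. The platelet markers did not all move alike there. Itgb3, the largest of them on day 0, averaged 1067, 754, 378 and 134 on days 0, 4, 8 and 11. Pf4 averaged 157, 468, 199 and 508 and Ppbp 119, 357, 94.4 and 53.4 on those days. On day 4 Zfp219 had 62.1, 49.3 and 73.6, below day 0 in every library, with no call (-0.63 ± 0.22, limma adjusted p = 0.0702), while the mean platelet sum was 3084, against 1947 on day 0. It had 45, 41.9 and 36.7 on day 8 and 35.2, 20.7 and 27.6 on day 11, against 105, 77.4 and 105 on day 0, with no overlap. The log2 fold changes were -1.19 ± 0.22 and -1.77 ± 0.22 (limma adjusted p = 0.000564 and 4.07e-06). Zfp385a (chromosome 15, 103313895 to 103340093, minus strand), known as Hzf and needed in mice for platelet granules, had 139, 166 and 192 on day 8 in B16, against 373, 300.5 and 487 on day 0, and fell by 1.20 on the log2 scale (limma adjusted p = 0.000286) while the platelet sum was higher. In CT26 it had 67.2, 81 and 89.5 on day 0, 120.4, 95.6 and 71.6 on day 4, 119, 129 and 123 on day 8 and 185, 175 and 151 on day 11. Days 8 and 11 lay above day 0 without overlap, with a day 11 change of 1.10 ± 0.17 (limma adjusted p = 4.67e-05).

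Zfp704 (chromosome 3, 9427020 to 9610085, minus strand) changed the most of all members. In CT26 it had 197, 231 and 239 on day 0, 114, 113 and 121 on day 4, 93.9, 73.7 and 99 on day 8 and 25.3, 4.6 and 21.8 on day 11. No 2 days overlapped, and on day 11 it was 14.9-fold lower than on day 0 on the log2(value + 1) scale (-3.89 ± 0.38, limma adjusted p = 2.57e-07). The day 8 call (-1.32 ± 0.38) was lost without day 0 replicate 2 or 3 (-1.29 and -1.27) or day 8 replicate 2 (-1.19). In B16 it had 18.6, 18.5 and 22.1 on day 0, 18.3 and 10.5 on day 4, 88.2, 66.3 and 57.5 on day 8 and 10.8, 10.9 and 8.77 on day 11, so day 8 stood above all other days (1.77 ± 0.28, limma adjusted p = 0.000161). Its B16 day 11 change (-0.90 ± 0.28, limma adjusted p = 0.0193) was lost without day 0 replicate 3 (-0.82) or day 11 replicate 3 (-0.81), by DESeq2 (-0.96) and in a fit of those 2 days alone (-0.90). Eosinophil markers moved over the same days. Ccr3, the eotaxin receptor, averaged 2919, 1542, 1080.1 and 222 on days 0, 4, 8 and 11 in CT26 and 70.4, 73.3, 778 and 68.3 in B16. Ear1, an eosinophil ribonuclease, averaged 535, 233, 183 and 8.21 in CT26 and 3.51, 3.60, 56.1 and 1.79 in B16. Siglecf, also on the list, averaged 1280, 883, 917 and 655 in CT26 and 389, 641, 1012 and 763 in B16. On day 11 in B16 its mean thus lay above that of day 0, while Zfp704 lay below its own day 0. All 8 of the list's markers tested in CT26 were called lower on days 8 and 11, when 11.8% and 24% of all genes were. In B16 4 of the 6 tested were called higher on day 8, when 28.6% of all genes were. There 0 were lower by limma, edgeR, DESeq2 or at an unadjusted p under 0.05, and the ribonuclease Ear2 averaged 30.2, against 50.3 on day 0. In B16 Ear1 reached the row mean of 5 needed for a test only through day 8, the day where it was high. The sum without Cd24a averaged 5509, 3023, 2447 and 923 in CT26 and 538, 761, 1977 and 910.3 in B16. The part of these cells in the values of Zfp704 was not tested. 16.6% of the exonic length of Zfp704 overlaps the opposite-strand gene C030034L19Rik.

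Among the 6 members of the list known from immune cells, Zfp318 (chromosome 17, 46383731 to 46420920, plus strand), which mature B cells need to make IgD, had 101, 115 and 161 on day 0, 56.4, 38.2 and 70.6 on day 4, 51, 38.9 and 35.7 on day 8 and 46.9, 28.8 and 23 on day 11 in CT26. Every later library lay below those of day 0, with log2 fold changes of -1.19 ± 0.27, -1.55 ± 0.27 and -1.93 ± 0.27 (limma adjusted p = 0.01, 0.00037 and 1.63e-05). The day 4 call was lost without day 0 replicate 3 (-0.996) or day 4 replicate 2 (-0.95). All 14 B cell markers were called lower on day 11, and their sum averaged 715, against 3738 on day 0. The sum averaged 2088 on day 8 and 1545 on day 4, while Zfp318 averaged 41.9 ± 8.06 on day 8 and 55.1 ± 16.2 on day 4. In B16 the mean B cell sum was 2837 on day 8 and 4514 on day 11, against 5435 on day 0, with 9 of the 14 markers called lower on day 8. Of all genes tested, 24% were called lower on day 11 in CT26 and 27.3% on day 8 in B16. Zfp318 had means of 75.9 ± 20.1 on day 8 and 79 ± 5.32 on day 11 there, against 67.5 ± 12.2 on day 0, and passed no test. The part of B cells in the CT26 falls was not tested. Zfp35 was lower on day 4 in B16 (-0.45 ± 0.14, limma adjusted p = 0.0252), a call lost in 5 alternative analyses. Zfp91, a ubiquitin ligase of noncanonical NF-kB signalling, had 322 ± 10.7 on day 11 in CT26, against 384 ± 37.1 on day 0, and its log2 fold change was -0.25 ± 0.10 (limma adjusted p = 0.0364). That call was lost without day 0 replicate 1 or 2 (-0.18 and -0.27) or day 11 replicate 2 or 3 (-0.22 and -0.26), by DESeq2 (-0.26) and in a fit of those 2 days alone (-0.25).

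Other members with large changes in CT26 were Zfp654, Zfp473 and Zfp503. Zfp654 had 432, 487 and 448 on day 11, against 236, 235 and 225 on day 0 (0.97 ± 0.09, limma adjusted p = 1.36e-07). Zfp473, a KRAB protein known in human cells (ZFP100) for histone messenger RNA processing, had 30.7, 50.6 and 51.7 on day 11, against 17.7, 14.6 and 12.9 on day 0 (1.47 ± 0.25, limma adjusted p = 0.000116). Zfp503, a relative of Zfp703, had 249, 277 and 193 on day 4 and 90.2, 85.1 and 80.5 on day 11, against 136, 154 and 169 on day 0. It was thus higher on day 4 (0.63 ± 0.14) and lower on day 11 (-0.83 ± 0.14, limma adjusted p = 0.000128), and the day 4 call was lost without day 4 replicate 2 (0.52). In B16 none of these 3 passed the limma test on any day.

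The models share no libraries, and each model's changes over its own day 0 can be set side by side. They differ in tumour, in mouse strain (Balbc and C57bl) and in normalization at once. These cannot be told apart in any difference between the models. On day 11, 41 members were called in both, 22 higher and 11 lower in both, 7 lower in CT26 and higher in B16 and 1 the reverse, so 80.5% had the same direction, against 72.7% of the 2776 genes called in both. On day 8, 17 were called in both, 6 higher and 2 lower in both and 9 in opposite directions, 47.1% the same, against 48.0% of 1816 genes. On day 4 it was 6, of which 5 were the same, 83.3%, against 86.0% of 620 genes. Across the 221 members Pearson's r between the models' log2 fold changes was 0.25, -0.02 and 0.34 on days 4, 8 and 11, against 0.28, -0.02 and 0.19 across all genes tested in both. Genes are not independent replicates, and within a model all of them share the same libraries, so these values are a description.

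**Figure D5:**
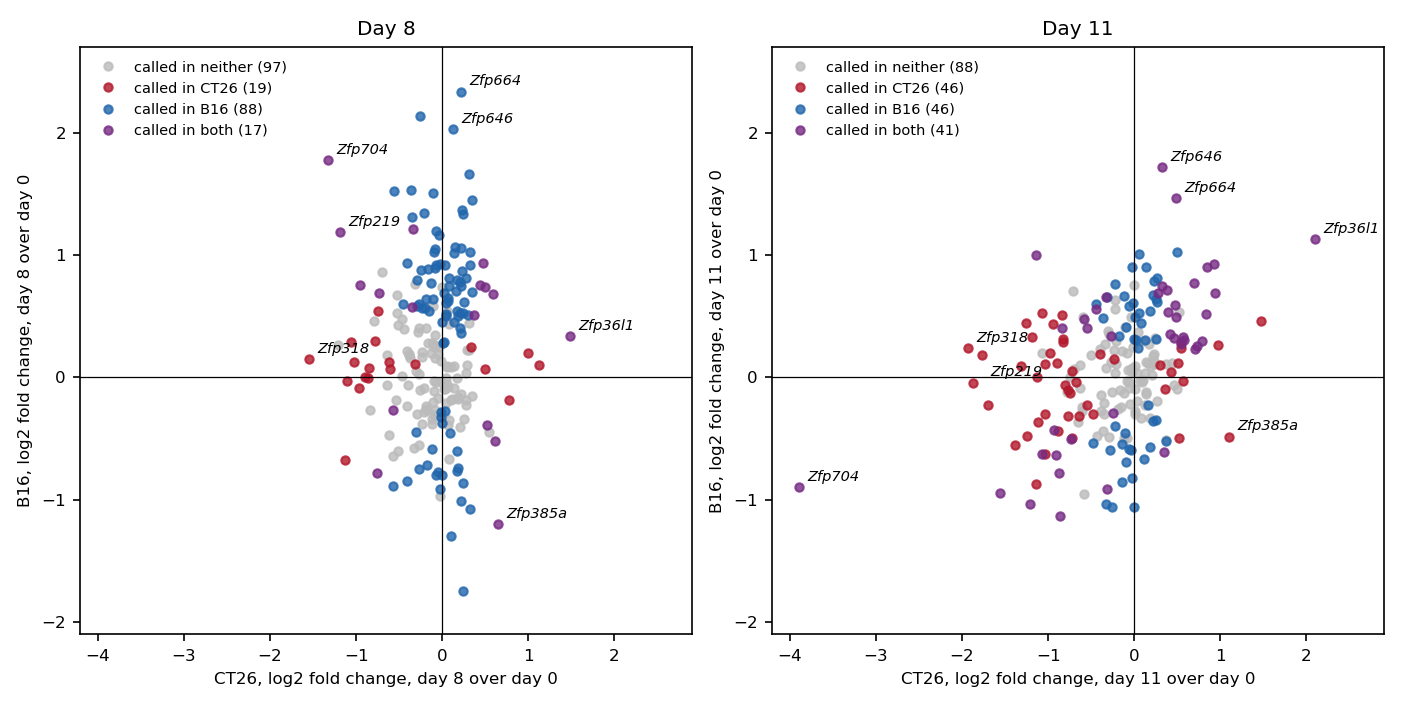
Log2 fold change over day 0 of the 221 members in CT26 (x axis) and B16 (y axis) on day 8 (left) and day 11 (right), coloured by the model in which the limma adjusted p was under 0.05. On day 8 Zfp704 and Zfp219 lie low in CT26 and high in B16, and on day 11 Zfp36l1 lies high in both.

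The next values come from a list of 30 corepressor and heterochromatin genes tested. It holds Trim28 and Setdb1, which KRAB members recruit, and also genes beyond the KRAB partners named at the start. In CT26 2 were higher on day 4, 4 higher and 4 lower on day 8 and 7 and 7 on day 11, and in B16 on days 4, 8 and 11 6, 10 and 6 were higher and 6, 5 and 9 lower. On day 8 in B16 edgeR called 12 higher and 5 lower and DESeq2 8 and 4. Of all genes, 28.6% were called higher and 27.3% lower there. Trim28, the common cofactor, had 395 on day 8 in CT26, against 499.8 on day 0 (log2 fold change -0.34 ± 0.09, limma adjusted p = 0.00986), and 415 on day 11 in B16, against 484 (-0.22 ± 0.07, limma adjusted p = 0.0282). Its other comparisons with day 0 were not called, with 0.04 on day 11 in CT26 and 0.03 on day 8 in B16. Setdb1 was called against day 0 only on day 8 in B16 (0.32 ± 0.10, limma adjusted p = 0.0158). The H3K9 methyltransferase Ehmt2 fell by 1.41 on the log2 scale on day 11 in CT26 (limma adjusted p = 3.72e-05) and the DNA methyltransferase Dnmt3a fell by 1.09 (limma adjusted p = 1.23e-08). The largest falls there were -2.36 for Dnmt3b and -2.17 for Chd3 (limma adjusted p = 0.00372 and 0.00013). The largest rises were 2.49 for Uhrf1, 1.03 for Cbx5 and 0.69 for Suv39h1 (limma adjusted p = 0.00107, 0.0134 and 0.00193). Uhrf1 averaged 16.8, against 1.57 on day 0, 2.31 on day 4 and 11.8 on day 8. It thus reached the row mean of 5 needed for a test only through days 8 and 11, where it was high. In B16 Dnmt3a was called higher on days 4, 8 and 11, by 0.31, 0.47 and 0.29 (limma adjusted p = 0.0368, 0.000995 and 0.0236). The CoREST subunit Rcor1 had 197 on day 8 in B16, against 24.4 on day 0 (3.02 ± 0.27, limma adjusted p = 1.84e-06), and its day 4 and day 11 values were 74.9 and 94.9. The largest B16 falls on day 11 were -1.17 for Mphosph8, -0.86 for Hdac2 and -0.72 for Cbx3 (limma adjusted p = 0.00017, 0.000627 and 5.31e-05). Of 38 Zbtb genes tested in B16, relatives with C2H2 fingers and a BTB domain, 13 were higher and 6 lower on day 8, and of 35 in CT26 7 and 10 on day 11. Of 15 Zscan and Zkscan genes tested in B16 it was 2 and 1, and of 14 in CT26 3 and 4. On day 11 in CT26, 26.3% of all genes were called higher and 24% lower.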

How the data were processed

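Poly-A RNA of 23 libraries, 12 from the CT26 and 11 from the B16 model, was compared between days. Per the submitters' processing notes, cutadapt, TopHat2 2.0.10, HTSeq 0.6.1p1 and DESeq2 1.6.3 were used with mm10; the roles of these tools, the annotation and the strandedness of counting are unstated there. The deposited signal values are normalized counts, and every value was a whole multiple of 1 step per library (tolerance 0.001), so the reads behind them were recovered. For 4 CT26 libraries the step lies near 1 and the recovery rests on the same multiples.

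The main test was limma 3.58.1 (R 4.3.3) with a trend on log2(value + 1), 1 mean per day and model, on genes with a row mean of at least 5, 2-sided, with Benjamini-Hochberg adjustment over all genes tested and a threshold of 0.05. edgeR 4.0.16 and DESeq2 1.42.0 on the recovered reads, another pseudocount (5), no filter, scaling to the same total, fits of 2 days alone, members with a row mean of at least 20, a replicate block and leaving out each library were the alternatives. The fit was tested on simulated data. Same-numbered libraries correlated by -0.163 to 0.223 in CT26 and -0.107 to 0.226 in B16. Different-numbered ones correlated by -0.36 to 0.26 and -0.302 to 0.273. The numbers thus gave no sign of pairing, but so few libraries per day cannot exclude it.

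Members and lists were chosen with earlier results of these data known. Named members follow a rule on the size and repetition of calls and the role lists, and exceptions are marked. C2H2 and KRAB matches come from GENCODE coding sequences, translated here, and the KRAB score minimum was set after the scores were seen. Depth sets the precision of low members.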

Additional observations from a re-analysis of the deposited data

Results flagged for a closer look

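Members called in opposite directions in the models, with no overlap between the later day and day 0 in either, are given as the CT26 log2 fold change minus the B16 one. The difference itself was not tested, since the models were normalized separately, and tumour and mouse strain cannot be told apart in it. On day 4 it was 0.78 for Zfp691. On day 8 it was -3.09 for Zfp704, -2.38 for Zfp219, -1.71 for Zfp280c, -1.55 for Zfp598, -1.42 for Zfp386, -0.92 for Zfp110, 0.91 for Zfp703, 1.13 for Zfp821 and 1.85 for Zfp385a. On day 11 it was -2.14 for Zfp677, -1.24 for Zfp746, -1.06 for Zfp598, -1.002 for Zfp341, -0.95 for Zfp865, -0.62 for Zfp263 and 0.96 for Zfp120. Not all of these calls held. On day 4 that of Zfp691 was lost in 5 alternatives in CT26 and 4 in B16. Of the day 8 calls in CT26, those of Zfp704 and Zfp598 were lost in 3, those of Zfp280c and Zfp386 in 2 and that of Zfp385a in 1, and in B16 that of Zfp386 was lost in 7 and that of Zfp280c in 3. On day 11 Zfp120 was lost in 8 in CT26 (down to 0.07, limma adjusted p = 0.696), Zfp341 in 5 in each model, Zfp677 in 12 in B16 and Zfp263 in 1 in B16. The other calls given here held in every alternative run. Zfp598 appears on both days, and Zfp746 encodes PARIS, a KRAB repressor known from human neurons. Zfp691, Zfp110, Zfp280c, Zfp386, Zfp703, Zfp120, Zfp263, Zfp341, Zfp677, Zfp746 and Zfp865 were named after their values were seen.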

How the results depend on the processing

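Of 156 recounts of called members, 142 stayed within 1.5 times the count first reported. With libraries scaled to the same total, CT26 had 8 members called on day 4, 66 on day 8 and 98 between day 11 and day 4, where 15, 36 and 60 were called first. With only the 2 days compared in the fit, CT26 day 4 had 26. Leaving out 1 library gave 6 (without day 4 replicate 1) to 34 (without day 11 replicate 1) on day 4 in CT26, 26 (without day 4 replicate 1) to 54 on day 4 in B16, and 7 (without day 11 replicate 1) to 19 (without day 0 replicate 3) between day 11 and day 4 in B16. Zfp426 on day 11 in CT26 had a log2 fold change of -0.0053 under the same total, the only named comparison to change sign, and the cause was not tested. Of 268 named member comparisons, 164 kept their call in every alternative run and 104 lost it in at least 1. The replicate block gave 13, 35, 84 and 59 called members in CT26 and 48, 102, 82 and 12 in B16. Since it is not known whether the numbers pair the libraries, these counts stand only as a check. Corepressor, Zbtb and Zscan genes were recounted by edgeR and DESeq2 alone; on day 11 in CT26, 6 Zbtb genes were higher and 12 lower by edgeR and 7 and 7 by DESeq2, against 7 and 10 by limma.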
